A study of Homo sapiens with 6 samples.

Results

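The genes described are those of the proteasome whose symbols run from PSMA to PSMG followed by a number, which takes in the subunits of the core and the regulatory particle, the assembly chaperones, the activators and an inhibitor. PSMC3IP, which belongs to meiotic recombination, was left out. The rule found 48 genes among the 25545 listed in RNA-seq of BT-549 cells, an established triple-negative breast cancer (TNBC) line. The cells were transfected with a control siRNA (CsiRNA, labelled BT-549/tet-NEAT1CsiRNA) or with an siRNA against the lncRNA NEAT1 (NEAT1siRNA, labelled BT-549/tet-NEAT1siRNA), and RNA was isolated after 48 h. There were 3 libraries in each group from cultures described as triplicates of 1 cell line, so p-values measure the spread between these cultures only. Values are TPM, the reads of a gene divided by transcript length and brought to the same total in each library.

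The proteasome degrades proteins that carry ubiquitin chains. Its barrel-shaped 20S core has outer rings of alpha subunits and inner rings of beta subunits, and PSMB6, PSMB7 and PSMB5 carry the caspase-like, trypsin-like and chymotrypsin-like catalytic sites. Cells exposed to interferon build the immunoproteasome, in which PSMB9, PSMB10 and PSMB8 take the places of PSMB6, PSMB7 and PSMB5, and its peptides feed antigen presentation. The 19S regulatory particle binds and unfolds the substrate with a base that holds ATPases and a lid that holds a deubiquitinase. NEAT1 is the RNA scaffold of nuclear paraspeckles, and the comparison asks what its silencing does to the mRNAs of this machine.

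NEAT1 (chr11:65422774-65445540, GRCh38) had TPM of 13.4, 7.68 and 10.8 in the CsiRNA libraries and 4.36, 2.96 and 2.73 in the NEAT1siRNA libraries, so every silenced library lay below every control. The log2 fold change of log2(TPM + 1) was -1.41 (SE 0.14, n = 3 and 3; limma, Benjamini-Hochberg adjusted p = 1.21e-07). Depth recovered from the deposited tables ran from 15788480 to 20339475 reads per library. Of the TPM, 64.4% to 68.1% went to 4 short noncoding RNAs (RN7SK, RN7SL1, RN7SL2 and RPPH1) that held 2.30% to 3.01% of the reads, so TPM of the other genes depended on them. The libraries also differed in how expression followed GC content, with Spearman's rho across 10421 genes of -0.209, -0.340 and 0.471 for the CsiRNA libraries and 0.677, -0.730 and 0.135 for the NEAT1siRNA libraries. As for the cell label, VIM stood between 859 and 1112 TPM, ESR1 and CD3E were listed at 0, PGR, EPCAM, CDH1 and PTPRC were at most 0.168 TPM, ERBB2 had 5.76 to 6.36 TPM and CD68 23.2 to 29.2 TPM. Of the mesenchymal genes, FN1 and CDH2 fell with NEAT1siRNA (log2 fold changes of -0.47 and -0.34, limma adjusted p = 0.0012 and 0.019), whereas VIM and ZEB1 did not pass the test. In bulk RNA, fewer cells of a kind and less RNA per cell cannot be told apart.

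The proteasome genes as a whole moved little. Of the 48, 46 were above 0 in every library, and PSMA8 and PSMB11, the subunits of testis and thymus, were listed at 0 in all 6. A mean of at least 1 TPM, the minimum for testing, was met by 45, and PSMB8 fell just under it. PSMB9 rose and PSMD7 and PSMD5 fell at an adjusted p under 0.05, which is 3 of 45 or 6.67%, where 14.0% of all 10721 tested genes were called (4.99% higher and 8.98% lower). At an unadjusted p under 0.05 there were 5 members. The share of all tested genes at that level was not worked out for this or the counts below, but cannot be under the 14.0% called. The log2 fold changes ran from -0.34 to 0.30 with a median of -0.02, beside -0.04 over all tested genes, and 19 were positive and 26 negative. The sign of this median and the split of signs followed the scaling: after median centring the median was 0.04 with 32 positive and 13 negative, and by voom on recovered reads 0.03 with 28 positive and 17 negative. Their quartiles were -0.06 and 0.05, against -0.16 and 0.07 over all tested genes. The 42 members that did not pass had 95% intervals that stayed between -0.39 and 0.47, with standard errors of the tested members from 0.084 to 0.107. Groups did not overlap for 8 of the 45 (17.8%, 5 above and 3 below the CsiRNA range), beside 30.3% of all tested genes.

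**Figure D1:**
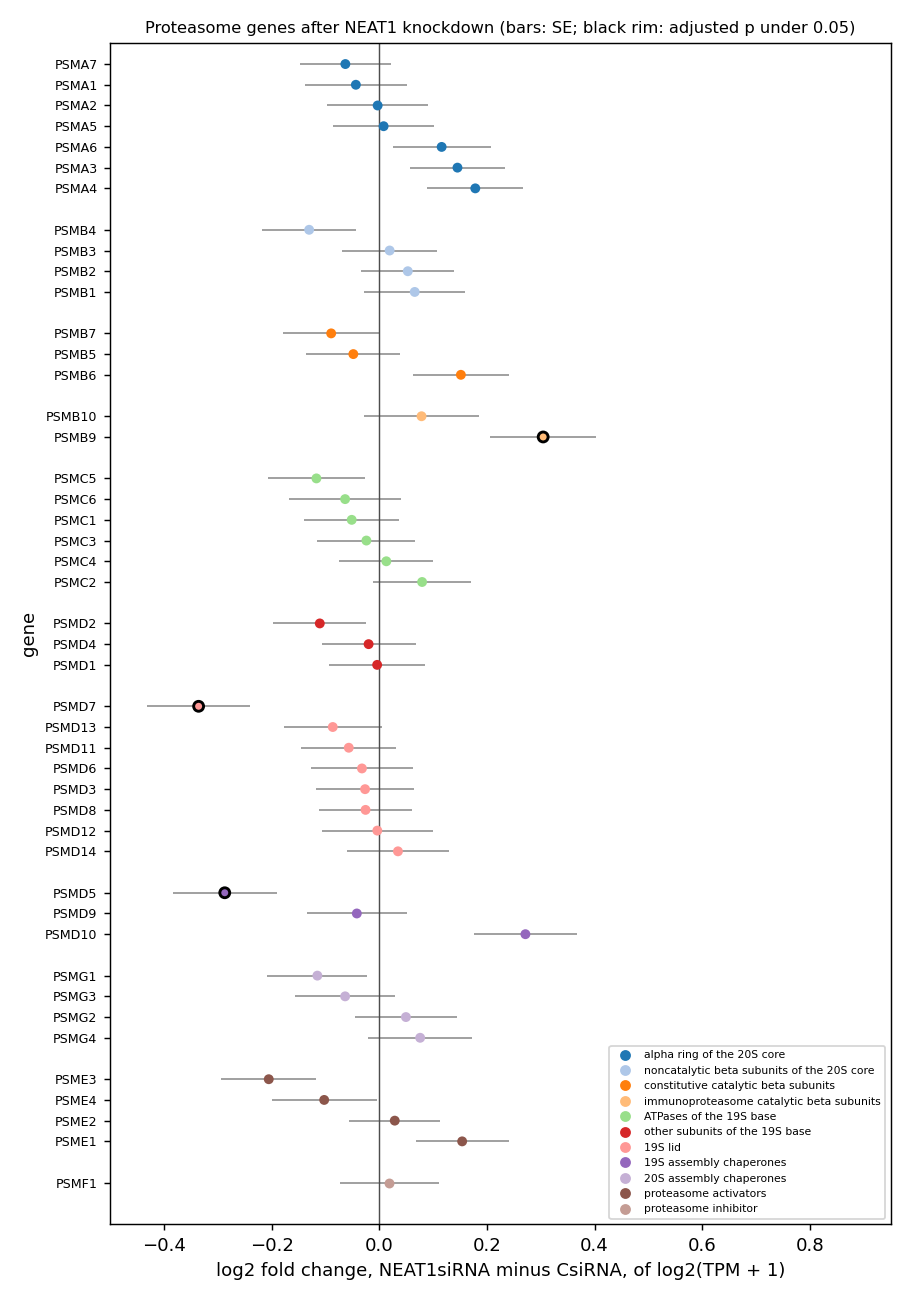
Log2 fold change (NEAT1siRNA minus CsiRNA, of log2(TPM + 1), x axis) of the 45 tested proteasome genes, grouped by class in colour along the y axis, with bars for the SE and a black rim for an adjusted p under 0.05. Most points lie near 0, and PSMB9 at 0.30, PSMD7 at -0.34 and PSMD5 at -0.29 carry the rim.

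The number of calls depended on how libraries were brought to a common scale. After centring each library on its median, which moved all tested genes by the same amount within a library, PSMA3, PSMA4, PSMB6, PSMB9 and PSMD10 were called higher and PSMD5 and PSMD7 lower, with 19.7% of all genes called. The same 7 genes were called after quantile normalization (20.4% of all genes), after leaving the 4 short noncoding RNAs out of the TPM (19.5%), and by voom and limma on recovered reads (23.2%). PSMA6 and PSME1 joined them when the dependence on GC content and transcript length was removed (33.3% of all genes). Without CsiRNA replicate 1, CsiRNA replicate 2 or NEAT1siRNA replicate 3, 0 members were called by limma (4, 4 and 5 at an unadjusted p under 0.05). Of all 10721 tested genes 759, 1289 and 838 were called in these settings. The counts of members without each of the other libraries were 1 to 3, with 1411 to 2083 of all tested genes called.

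PSMB9, the interferon-inducible subunit that replaces PSMB6, was the member with the highest log2 fold change. Its TPM were 1.03, 0.951 and 0.860 in BT-549/CsiRNA cells and 1.38, 1.57 and 1.26 in BT-549/NEAT1siRNA cells. The lowest silenced library lay above the highest control, and the mean of 1.40 ± 0.158 (SD, n = 3) was 149% of the control mean of 0.946 ± 0.0833 (SD, n = 3). In recovered reads these were 179, 168 and 185 against 260, 312 and 221. The log2 fold change was 0.30 on the log2(TPM + 1) scale (SE 0.099, limma adjusted p = 0.0396), which understates changes at such levels. It was 0.52 with a pseudocount of 0.1 and 0.62 by voom on recovered reads (SE 0.099, limma adjusted p = 0.00037). With any of the 6 libraries left out the log2(TPM + 1) value stayed between 0.25 and 0.35 but the adjusted p of limma was 0.0559 to 0.130, so the call needed all of them. PSMB9 met the minimum for testing only through the NEAT1siRNA libraries. When the minimum was lowered to 0.5 TPM, after the data had been seen, PSMB9 remained called (limma adjusted p = 0.0393, with 12.4% of all genes called).

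The TPM of PSMB9 and PSMB8 cannot be set beside those of other subunits. Reads and TPM together imply the transcript length behind a TPM value, and this length was 12.96 times that of the annotated canonical transcript for PSMB8 and 8.34 times for PSMB9. Over 65 tested genes of the MHC region (chr6:29000000-34000000) the median was 6.89 times, whereas it was 0.999 times over 10356 other genes and 0.941 times over the other 44 tested members (0.270 to 1.79). The cause was not tested. TPM of these genes were therefore low for their reads and canonical lengths, and levels of the catalytic subunits are given as reads per kb of canonical transcript. This scale takes the reads as counted, and whether the length or the reads were off was not tested. On that scale PSMB7 had 3654 ± 92.8 in CsiRNA libraries (SD, n = 3), PSMB5 1636 ± 182, PSMB6 1398 ± 80.1, PSMB8 258 ± 16.5, PSMB9 174 ± 8.48 and PSMB10 112 ± 5.15. In NEAT1siRNA libraries the values were 3435 ± 435, 1574 ± 168, 1551 ± 158, 292 ± 40.6, 260 ± 44.9 and 119 ± 18.3, in the same order of genes. PSMB5 and PSMB6 overlapped in the silenced libraries within their spread, as did PSMB8 and PSMB9. These spreads include differences in depth that both genes of a library share. The overlap therefore does not settle the order of 2 genes within a library. By TPM, PSMB6 stood above PSMB5, so the order of that pair depends on the length used. These reads were not scaled to depth, so they rank genes within a group only.

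The sequences around the starts of these genes are shown because the immunoproteasome genes are classical interferon targets and because PSMB9 shares its upstream region with TAP1, the peptide transporter gene read in the opposite direction. RefSeq (GRCh38.p14) windows of 250 bases before to 50 bases after a start were matched for 42 of the 48 genes by symbol. The RefSeq starts of PSMB9 and TAP1 shown were 488 bases apart and their windows share 13 bases. Capitals mark matches on either strand to GAAANNGAA (the core of the interferon-stimulated response element), TGACNNNGC (the core of the antioxidant response element) or GGGANTTTC (an NF-κB site), and each line runs 5′ to 3′ on the gene's own strand.
PSMB9 (chr6:32853942-32854241, plus strand): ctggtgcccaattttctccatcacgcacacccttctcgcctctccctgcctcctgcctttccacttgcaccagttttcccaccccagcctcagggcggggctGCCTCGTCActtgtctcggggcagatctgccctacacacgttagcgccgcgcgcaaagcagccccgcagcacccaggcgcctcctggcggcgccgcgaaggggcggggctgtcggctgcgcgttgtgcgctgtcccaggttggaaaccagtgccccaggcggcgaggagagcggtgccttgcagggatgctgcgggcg
TAP1 (chr6:32853655-32853954, minus strand): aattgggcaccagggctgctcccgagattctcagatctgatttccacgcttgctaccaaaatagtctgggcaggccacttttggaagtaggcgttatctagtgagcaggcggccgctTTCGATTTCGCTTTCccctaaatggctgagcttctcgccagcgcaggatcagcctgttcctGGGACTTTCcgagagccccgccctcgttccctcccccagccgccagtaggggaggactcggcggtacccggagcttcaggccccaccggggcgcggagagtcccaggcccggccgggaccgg
PSMB8 (chr6:32843998-32844297, minus strand): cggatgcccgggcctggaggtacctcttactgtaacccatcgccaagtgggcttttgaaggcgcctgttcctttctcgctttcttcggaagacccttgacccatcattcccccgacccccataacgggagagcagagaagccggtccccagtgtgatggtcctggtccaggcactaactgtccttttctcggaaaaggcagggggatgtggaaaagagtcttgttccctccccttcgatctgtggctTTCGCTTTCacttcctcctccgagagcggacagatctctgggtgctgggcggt
PSMB10 (chr16:67936801-67937100, minus strand): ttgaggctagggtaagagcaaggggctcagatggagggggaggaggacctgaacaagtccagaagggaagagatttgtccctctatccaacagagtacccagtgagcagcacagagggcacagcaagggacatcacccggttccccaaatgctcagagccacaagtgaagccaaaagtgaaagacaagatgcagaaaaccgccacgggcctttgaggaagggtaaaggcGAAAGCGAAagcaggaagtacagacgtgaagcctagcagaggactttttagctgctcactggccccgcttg
PSMB5 (chr14:23035171-23035470, minus strand): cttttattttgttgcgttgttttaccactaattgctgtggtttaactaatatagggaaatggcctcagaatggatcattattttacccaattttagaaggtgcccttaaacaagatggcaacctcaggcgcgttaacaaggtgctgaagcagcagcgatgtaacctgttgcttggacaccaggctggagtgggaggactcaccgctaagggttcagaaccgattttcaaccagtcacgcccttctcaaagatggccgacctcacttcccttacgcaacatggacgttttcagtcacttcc

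The window of PSMB8 is the one of its 2 windows that held a match, at its start, and the match of PSMB10 lies just before its start. TAP1 holds a pair of overlapping matches to the interferon element and an NF-κB match, whereas the PSMB9 window holds a single match to the antioxidant element and none to the other motifs. The PSMB5 window shown holds none of the motifs. Among the 51 windows of proteasome genes, 15.7% held the interferon element, in PSMA4, PSMB4, PSMB8, PSMB10, PSMC2, PSME1, PSME2 and PSMG4, beside 8.11% of 35116 windows of all genes. The antioxidant element was in 29.4% of members' windows and 13.3% of all, and the NF-κB letters in 0 and 1.28%. A match describes letters and is no measure of binding.

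PSMB8, the counterpart of PSMB5, had TPM of 0.952, 0.907 and 0.842 with CsiRNA and 1.03, 1.09 and 0.931 with NEAT1siRNA, and the groups overlapped because the lowest silenced library lay under the highest control. With the minimum lowered to 0.5 TPM its log2 fold change was 0.09 (95% interval -0.10 to 0.28, limma adjusted p = 0.588). By voom on recovered reads with that minimum, where 22.4% of all genes were called, it was 0.23 (0.05 to 0.40, limma adjusted p = 0.0656). PSMB10, which replaces PSMB7, had TPM of 7.35, 7.002 and 5.44 against 7.61, 7.22 and 6.16, with overlapping groups and a log2 fold change of 0.08 (95% interval -0.14 to 0.30, limma adjusted p = 0.687). Exons of PSMB8 lie over those of PSMB9 and PSMB8-AS1 on the opposite strand, and the strand setting of the counting was not given in the sources used here. Exons of PSMB9 also lie over those of PSMB8-AS1 on its own strand, which no strand setting separates. Whether the reads of PSMB9 were shared with these genes was not tested.

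Of the constitutive catalytic subunits, PSMB5, the target of the drug bortezomib, had TPM of 61.5, 65.1 and 61.8 with CsiRNA and 60.8, 63.5 and 57.8 with NEAT1siRNA (log2 fold change -0.05, SE 0.087). PSMB6 had 91.5, 85.0 and 78.3 against 90.3, 99.5 and 93.2 (0.15, SE 0.089, limma adjusted p = 0.288), and PSMB7 had 227, 222 and 191 against 200, 213 and 187 (-0.09, SE 0.089). All of these groups overlapped. PSMB6 was called by voom on recovered reads (0.20, limma adjusted p = 0.042), as it was under the other rescalings named above. PSMB5 and PSMB7 were called under none of the settings tried, and the sign of PSMB5 turned to 0.01 after median centring.

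**Figure D2:**
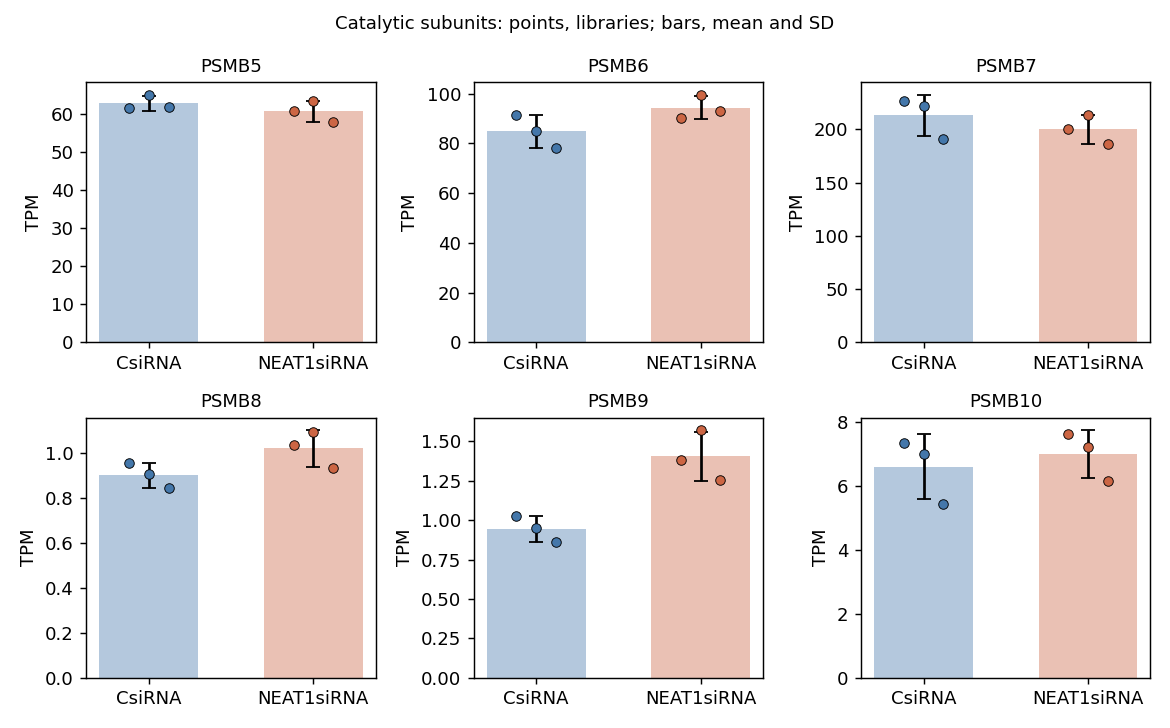
TPM (y axes, each starting at 0 and each with its own scale) of the constitutive catalytic subunits PSMB5, PSMB6 and PSMB7 and the immunoproteasome subunits PSMB8, PSMB9 and PSMB10 in CsiRNA and NEAT1siRNA libraries, with points for the 3 libraries of a group, bars for means and lines for the SD. The groups are apart for PSMB9 and overlap for the other genes shown. TPM of PSMB8 and PSMB9 are on another length scale than the rest.

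Set against the subunit it replaces, each immunoproteasome subunit had a higher ratio in every NEAT1siRNA library than in any CsiRNA library. By TPM alone the groups of PSMB8 and PSMB10 overlapped. PSMB5, PSMB6 and PSMB7 had log2 fold changes of -0.05, 0.15 and -0.09, so the ratios hold changes of both subunits. Of all tested single genes 30.3% did not overlap, and the share among ratios of other gene pairs was not worked out. A ratio of genes within a library does not depend on the library's scale, and its change does not depend on transcript length. It can still depend on GC content, which the libraries followed differently. GC content was 61.7% for PSMB10 and 49.8% for PSMB7. It was 52.4% for PSMB9 and 55.2% for PSMB6, and 54.9% for PSMB8 and 53.0% for PSMB5. The log2 ratio of PSMB9 to PSMB6 was 0.42 above that in CsiRNA libraries (-6.07 ± 0.121 against -6.49 ± 0.016, SD, n = 3). The ratio of PSMB8 to PSMB5 differed by 0.23 (-5.90 ± 0.050 against -6.13 ± 0.098) and that of PSMB10 to PSMB7 by 0.18 (-4.84 ± 0.110 against -5.02 ± 0.099). For each of the 3 pairs the exact two-sided permutation test gave p = 0.1, which is the smallest that 3 libraries against 3 allow, and 0.1 after adjustment over the pairs. This test could therefore not reach a p under 0.05 for these ratios. As shares of reads per kb within a pair, PSMB9 was 11.17%, 11.15% and 10.97% in CsiRNA libraries and 14.7%, 15.1% and 13.1% in NEAT1siRNA libraries. PSMB8 was 14.6%, 13.3% and 13.1% against 15.8%, 16.0% and 15.1%, and PSMB10 was 3.12%, 3.04% and 2.75% against 3.64%, 3.25% and 3.17%. The constitutive subunit was the larger part of each pair in all 6 libraries.

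**Figure D3:**
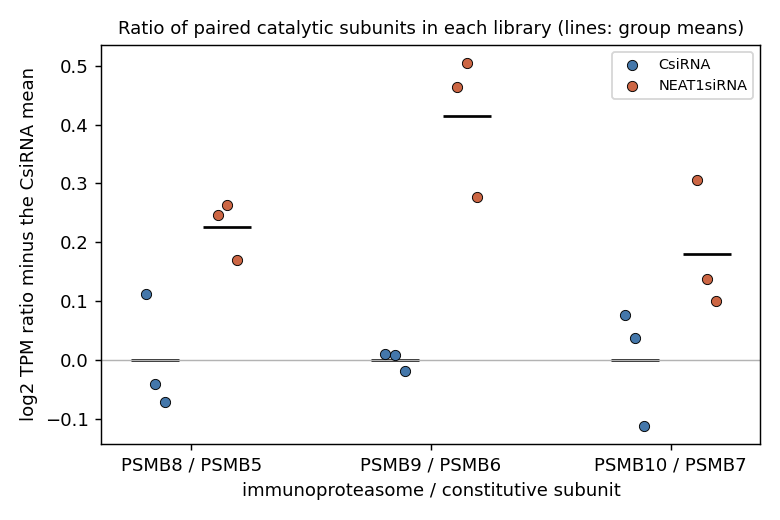
Log2 TPM ratio of each immunoproteasome subunit to the constitutive subunit it replaces, less the CsiRNA mean of that pair (y axis), for the 3 pairs along the x axis, with points for libraries and lines for group means. All NEAT1siRNA points lie above all CsiRNA points of their pair, and the differences of the means are 0.23, 0.42 and 0.18 from left to right.

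In the rest of the 20S core, 0 of the 7 tested alpha subunits and 0 of the 4 noncatalytic beta subunits passed the limma test with TPM as deposited, and 0 had an unadjusted p under 0.05. By voom, which called 23.2% of all genes, 2 alpha subunits and 0 of the others were called. The alpha ring forms the gate of the barrel. PSMA4 had the highest log2 fold change of the ring, with TPM of 113, 113 and 107 against 121, 140 and 117 and no overlap (0.18, SE 0.089, limma adjusted p = 0.198). By voom on recovered reads PSMA4 was called (0.23, limma adjusted p = 0.022), as was PSMA3 (0.19, limma adjusted p = 0.043), which had TPM of 146, 143 and 138 against 152, 175 and 147. PSMA7 was the lowest, with TPM of 243, 231 and 210 against 216, 222 and 216 and a log2 fold change of -0.06. Among the noncatalytic beta subunits, PSMB1 had TPM of 151, 146 and 122 against 141, 158 and 138 (0.07), and PSMB4 had 220, 221 and 195 against 200, 200 and 180 (-0.13), with overlap for both. Over the 14 core genes without the immunoproteasome and tissue-specific subunits the median was 0.01, and 8 were positive.

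The 19S particle had a median of -0.03 over 17 genes, of which 3 were positive with TPM as deposited, but 12 after median centring (median 0.03) and 10 by voom on recovered reads (median 0.02). Of its 6 ATPases, 0 were called by limma or by voom, and 0 had an unadjusted p under 0.05. PSMC2, an ATPase of the ring that unfolds substrates, had TPM of 46.3, 44.4 and 39.7 against 44.8, 48.8 and 44.2 (0.08), and PSMC5, another ATPase, had 51.7, 47.5 and 45.5 against 46.8, 44.5 and 41.9 (-0.12), both with overlap. Of the other base subunits, the scaffold PSMD1 had 59.7, 59.0 and 59.2 against 61.9, 62.3 and 53.6, a log2 fold change of -0.0039 whose sign turned with the scaling. The ubiquitin-binding scaffold PSMD2 had 141, 134 and 125 against 128, 124 and 117 (-0.11), and the groups overlapped.

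PSMD7, the lid subunit Rpn8, was the member with the lowest log2 fold change and the only 1 of the 8 lid genes past the threshold. Its TPM were 63.3, 61.9 and 53.4 with CsiRNA and 45.3, 52.1 and 43.5 with NEAT1siRNA. Every silenced library lay below every control, and the mean of 47.0 ± 4.53 (SD, n = 3) was 78.9% of the control mean of 59.6 ± 5.35. The log2 fold change was -0.34 (SE 0.096, limma adjusted p = 0.020). By voom on recovered reads it was -0.30 (limma adjusted p = 0.0070). Leaving out CsiRNA replicate 1, CsiRNA replicate 2 or NEAT1siRNA replicate 3 took the limma adjusted p to 0.127, 0.083 and 0.124 at log2 fold changes of -0.29, -0.31 and -0.28. PSMD14, the deubiquitinase Rpn11 that forms a heterodimer with PSMD7, had TPM of 74.3, 72.1 and 63.3 against 67.4, 80.4 and 67.3, with overlap and a log2 fold change of 0.03 (95% interval -0.16 to 0.23). Whether the 2 genes differed in their change was not tested.

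Of the 3 chaperones that assemble the 19S base, PSMD5 fell, with TPM of 41.4, 38.9 and 35.6 against 29.1, 35.4 and 30.1. The highest silenced library lay just under the lowest control, and the silenced mean was 81.6% of the control mean (log2 fold change -0.29, SE 0.096, limma adjusted p = 0.047). Without CsiRNA replicate 1, CsiRNA replicate 2, NEAT1siRNA replicate 1 or NEAT1siRNA replicate 3 the limma adjusted p of PSMD5 was 0.228, 0.123, 0.161 and 0.181. PSMD10, or gankyrin, also known as an oncoprotein of liver cancer, had TPM of 29.2, 28.8 and 23.7 against 31.8, 34.1 and 32.9, with every silenced library above every control. Its log2 fold change of 0.27 (SE 0.096) missed the threshold (limma adjusted p = 0.058) and passed it by voom on recovered reads (0.33, limma adjusted p = 0.0066). Without CsiRNA replicate 3 the log2(TPM + 1) value was 0.18 (limma adjusted p = 0.279), and without NEAT1siRNA replicate 2 it passed at 0.25 (limma adjusted p = 0.046). Differences in change between the chaperones were not tested. PSMD9, the remaining base chaperone, had 6.20 to 6.93 TPM over the 6 libraries and a log2 fold change of -0.04. PSMD7 and PSMD10 have named pseudogenes, so their reads may be shared with copies.

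**Figure D4:**
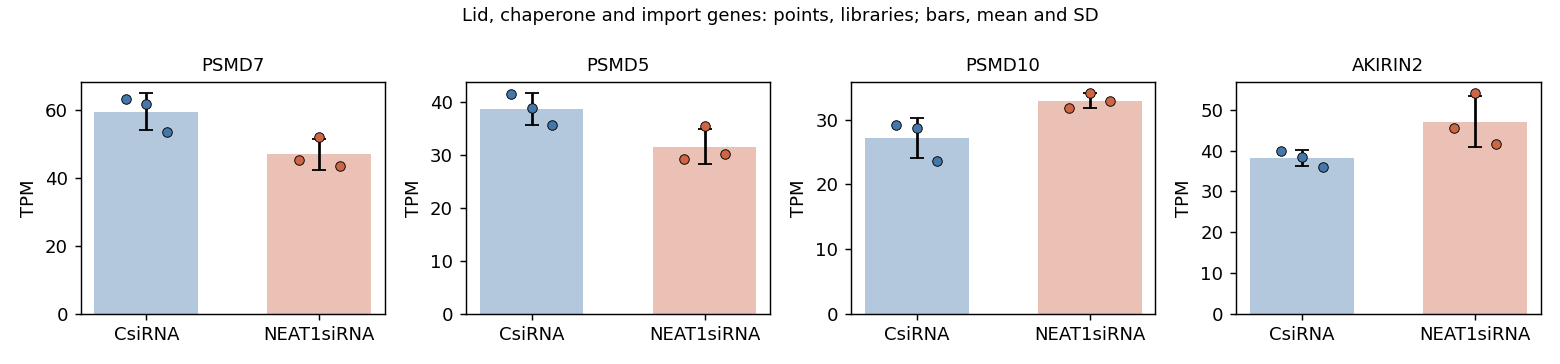
TPM (y axes from 0, each with its own scale) of the lid gene PSMD7, the base chaperones PSMD5 and PSMD10 and the import factor gene AKIRIN2 in CsiRNA and NEAT1siRNA libraries, with points for the 3 libraries, bars for means and lines for the SD. The groups do not overlap for any of the 4 genes, with PSMD7 and PSMD5 lower and PSMD10 and AKIRIN2 higher in NEAT1siRNA libraries.

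Of the 4 chaperones of the core, 0 were called by limma or by voom, and 0 had an unadjusted p under 0.05. PSMG4 had TPM of 7.001, 6.97 and 6.07 against 6.68, 7.85 and 6.78 (0.08), and PSMG1 had 42.4, 42.6 and 37.8 against 34.8, 40.9 and 37.4 (-0.12), with overlap for both. The activators open the gate of the core without ubiquitin, and of the 4, 0 were called by limma or voom and 1, PSME3, had an unadjusted p under 0.05. PSME1, a subunit of the interferon-inducible activator PA28, had TPM of 52.9, 53.4 and 51.8 against 59.6, 56.6 and 60.0, with no overlap but a log2 fold change of 0.15 that did not pass (SE 0.086, limma adjusted p = 0.257). Its partner PSME2 had 85.2 to 87.5 TPM with CsiRNA and 85.3 to 90.0 with NEAT1siRNA (0.03). PSME3, the subunit of the nuclear form, had 54.7, 54.5 and 51.3 against 48.3, 46.6 and 43.97, also without overlap (-0.21, SE 0.088, limma adjusted p = 0.124). PSME1 was called only after removal of the trend on GC content and length (0.21, limma adjusted p = 0.008), alone or with a replicate block, and PSME3 was called under none of the settings. PSMF1, the inhibitor PI31, had 8.11, 7.47 and 8.46 against 8.12, 8.47 and 7.79 (0.02).

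Around the proteasome, 51 further genes were read as lists, all tested, of which 1 rose and 2 fell (5.88%, beside 14.0% of all tested genes). AKIRIN2, which brings assembled proteasomes into the nucleus, had TPM of 40.0, 38.5 and 36.0 against 45.7, 54.1 and 41.8, with no overlap (log2 fold change 0.29, SE 0.098, limma adjusted p = 0.046). Without CsiRNA replicate 1, 2 or 3 or NEAT1siRNA replicate 2 its limma adjusted p was 0.093, 0.094, 0.103 and 0.135, and the call was also lost with eBayes without trend (0.054), with a minimum of 0.5 TPM (0.058) and without a filter (0.182). It was the only call among 12 proteasome-associated genes with TPM as deposited, and voom called 2, beside 23.2% of all genes. The 6 genes of ubiquitin and its activating enzymes and the 9 of shuttle factors and the VCP complex gave 0 calls by limma or voom and 0 unadjusted p under 0.05, with log2 fold changes between -0.10 and 0.11.

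Of 8 genes that control proteasome transcription through NRF1 and NRF2, the small MAF genes MAFF and MAFK fell, where 8.98% of all tested genes were called lower. Small MAF proteins are the partners with which NRF1 and NRF2 bind the antioxidant response element. MAFF had TPM of 5.17, 4.18 and 3.94 against 2.84, 2.56 and 2.63 (log2 fold change -0.56, SE 0.101, limma adjusted p = 0.00046), and MAFK had 4.18, 4.69 and 4.39 against 3.63, 2.97 and 2.99 (-0.37, SE 0.098, limma adjusted p = 0.011). Both sets were without overlap. The call of MAFF held without each library in turn, and that of MAFK was lost without NEAT1siRNA replicate 3 (-0.34, limma adjusted p = 0.063). NFE2L1, which encodes NRF1, had 30.4 to 33.7 TPM against 33.9 to 38.0 (0.15, limma adjusted p = 0.314), and was called by voom on recovered reads, which called 23.2% of all genes (0.20, limma adjusted p = 0.046), as was NFE2L2, which encodes NRF2 (0.22, limma adjusted p = 0.028).

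Of 13 genes of interferon signalling, which controls the immunoproteasome genes, 0 passed the limma test with TPM as deposited and 2, IRF2 and IFNGR2, had an unadjusted p under 0.05. IRF1 had TPM of 8.75, 7.29 and 7.83 against 8.86, 9.005 and 8.88 (0.15, limma adjusted p = 0.324) and IRF2 had 11.7, 10.8 and 11.5 against 13.4, 14.2 and 12.9 (0.23, limma adjusted p = 0.095). IFNGR2, a chain of the interferon gamma receptor, had 9.63 to 11.3 TPM against 11.8 to 12.5 (0.20, limma adjusted p = 0.165). The groups of these 3 genes, picked after their values were seen, did not overlap, beside 30.3% of all tested genes. Over the 13 genes the log2 fold changes ran from -0.17 to 0.23 with a median of 0.05, and 8 were positive. By voom on recovered reads IRF2 (0.29, limma adjusted p = 0.0088) and IFNGR2 (0.26, limma adjusted p = 0.011) were called higher, with the same 23.2% of all genes called. TAP1, opposite PSMB9, had TPM of 2.04, 1.85 and 1.83 against 1.81, 1.85 and 1.71, with overlap and a log2 fold change of -0.06 (95% interval -0.25 to 0.14, limma adjusted p = 0.743). TAP2 had 2.52, 2.18 and 2.37 against 1.99, 1.96 and 1.80, below the controls throughout (-0.20, limma adjusted p = 0.174), and was called lower by voom on recovered reads (-0.25, limma adjusted p = 0.013). Whether PSMB9 and TAP1 differed in their change was not tested.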

How the data were processed

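RNA of BT-549 cells was collected 48 h after transfection (3 libraries a group). The authors made TruSeq Stranded mRNA libraries, aligned reads to GRCh38 with STAR and used DESeq2. The counting tool, its strand setting and the versions of STAR and DESeq2 were not given in the sources used here. The authors deposited TPM per gene and library, and a comparison table from which only the mean normalized count was used, a signal over all 6 libraries. Its fold changes and p-values were not used.

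On the log2(TPM + 1) scale, the 10721 genes that averaged 1 TPM or more were compared with limma 3.58.1 in R 4.3.3 (eBayes with trend, Benjamini-Hochberg adjustment over all of them, threshold 0.05, two-sided). Ratios were tested by an exact permutation test. Joining both tables gave reads per gene: below a mean normalized count of 5, 99.8% were whole to within 0.05, but 16.0% among the 6400 highest genes, whose reads are approximate. The scripts were tested on simulated data. Python 3.11.15 (numpy 2.4.6, pandas 2.3.3, matplotlib 3.10.9) served for the rest. GENCODE gave GC content and length for 97.2% of tested genes.

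The members and lists were chosen with earlier results of these data known. Named were PSMB5 to PSMB10, each member past the threshold, the highest and the lowest of each class, and called genes of the other lists. PSMA3, PSMD9, PSME2, FN1, CDH2, NFE2L1, NFE2L2, IRF1, IRF2, IFNGR2, TAP1 and TAP2 were added after their values were seen. The result of 1 other gene is not reported here. The alternatives tried were other scalings, filters and pseudocounts, voom on the recovered reads, removal of GC and length trends, a replicate block and each library left out. A minimum of 0.5 TPM was added after seeing the data.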

Additional observations from a re-analysis of the deposited data

How the results depend on the processing

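Depth is no close limit for most members, since tested members had means of 113 to 8755 recovered reads, but 3 libraries a group leave intervals as wide as those given above. Under the alternatives, PSMB9, PSMD7, PSMD5, PSMD10, PSMA4 and PSMB6 kept their direction under every setting in which they were tested. Without a filter on TPM, 0 members were called higher and 0 lower by limma (6 at an unadjusted p under 0.05), with 505 genes called in all and 1 of the pathway genes; PSMB9, PSMD5 and PSMD7 had unchanged log2 fold changes of 0.30, -0.29 and -0.34 but lost their calls (limma adjusted p = 0.084, 0.163 and 0.123), so the classes of the immunoproteasome, the lid and the 19S chaperones had 0 calls each. With a minimum of 5 TPM the immunoproteasome class had 0 calls, the 19S chaperones 2 and the pathway genes 1. With eBayes without trend 1 member was called lower and 0 of the 19S chaperones, as with a minimum of 0.5 TPM, and PSMD5 (-0.29) and AKIRIN2 were lost in both. Quantile normalization, median centring and removal of the 4 short noncoding RNAs each gave 5 members higher, 2 of the alpha ring, 1 constitutive catalytic subunit and 2 of the 19S chaperones, with 9, 9 and 8 pathway genes called, and PSMB6 passed at 0.18, 0.21 and 0.19. Voom on recovered reads gave the same counts of members, with 10 pathway genes and PSMB6 at 0.20, at either minimum, and 2482 genes called in all at the minimum of 1 TPM and 2633 at 0.5. Removal of the trend on GC content and length gave 7 members higher, 3 of the alpha ring, 1 constitutive catalytic subunit, 2 of the 19S chaperones, 1 activator, 16 pathway genes and 3469 genes in all, with PSMB6 at 0.20.

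Libraries of the same replicate number had correlations of -0.030, 0.251 and -0.107 between their deviations from the group means, and those of unlike numbers -0.397 to 0.399. No pairing by number was seen. These deviations also followed GC content, so this check cannot decide whether libraries of the same number were handled together. With the replicate block, 2 members were called higher (PSMB9 and PSMD10) and 2 of the 19S chaperones. With the block and the trend on GC content and length removed, 6 members were called higher, 2 of the alpha ring, 1 constitutive catalytic subunit, 2 of the 19S chaperones, 1 activator, 17 pathway genes and 3392 genes in all, with PSMB6 at 0.20.

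Leaving out each library in turn gave 0 to 1 members called higher, 0 to 2 lower, 2 to 4 pathway genes and 759 to 2083 genes in all, with 0 calls in the immunoproteasome class, 0 to 1 in the lid and 0 to 2 in the 19S chaperones. The ranges of log2 fold changes were 0.25 to 0.35 for PSMB9, -0.41 to -0.28 for PSMD7 and -0.37 to -0.23 for PSMD5. The sign turned under at least 1 setting for 22 of the 45 tested members, whose log2 fold changes with TPM as deposited lay between -0.063 and 0.079, and for none of the other 23. Their median was positive after quantile normalization (0.014), median centring (0.037), removal of the short noncoding RNAs (0.012), voom (0.026) and removal of the trend on GC content and length (0.021), and ran from -0.061 to 0.022 without each library in turn. PSMB10 ran from -0.036 to 0.16 without each library in turn, PSMB1 from -0.028 to 0.12, PSMD14 from -0.049 to 0.080, PSMF1 from -0.025 to 0.054 and PSMD1 from -0.041 to 0.065. PSMB5 was 0.0087 after median centring and 0.0020 after removal of the trend on GC content and length, with or without the block. PSMD1 was 0.032 after quantile normalization, 0.053 after median centring, 0.028 without the short noncoding RNAs, 0.042 by voom at either minimum and 0.054 after removal of the trend on GC content and length, with or without the block. The differences of the ratios of paired catalytic subunits kept their direction throughout, at 0.37 to 0.48, 0.19 to 0.28 and 0.12 to 0.22 without each library in turn for PSMB9, PSMB8 and PSMB10. The cause of these changes was not tested.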
